A study of Mus musculus with 6 samples.

Results

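The genes described here are 8 known genes of migratory, mature dendritic cells (DCs): Fscn1, Il4i1, Socs2, Cacnb3, Tmem123, Marcksl1, Traf1 and Birc3. They were chosen by name as known genes of these cells, with earlier results of these data in view, and all 8 were found among the 31063 genes of the DC tables and the 31065 genes of the wound tables. The question was whether they moved as one programme or apart when DCs were given vitamin D3 (VD3) or lost Ndrg2. The data were 6 libraries of droplet-based single-cell RNA sequencing (10x Chromium, 3′ ends), with 1 library per condition. The first 3 held mouse bone marrow-derived cells grown into DCs with GM-CSF and taken from the suspended part of the culture. One was left untreated, one received VD3 (1,25-dihydroxycholecalciferol) on day 7 for 24 h, and one was a CRISPR knockout of Ndrg2. The knockout was made by nucleofection of Cas9 with a mixture of 3 guides and was a mixed population, not a clone, so nucleofection and loss of Ndrg2 cannot be told apart from the untreated cells. The last 3 libraries held all cells of excisional skin wounds explanted on day 10, from mice operated at 6 weeks of age with 5 mice per group, though how many of them stand behind each library is not given in the sources used here. These wounds had been covered with a pullulan-collagen hydrogel that was seeded with control (untreated) DCs, seeded with Ndrg2-KO DCs, or blank. How many of the cells came from the host and how many were seeded was not measured. The labels call the control DCs of this wound library untreated, whereas the study's methods describe control DCs nucleofected with non-targeting guides, and which of these was used here is not settled.

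A DC that has met a danger signal or has settled in culture stops sampling antigen, displays peptide and co-stimulatory molecules, gains the chemokine receptor CCR7 and crawls toward the lymph node. Fscn1 encodes fascin, which bundles actin into the protrusions of migrating mature DCs, and Marcksl1 encodes a relative of MARCKS that links actin to the membrane. Socs2 and Il4i1 are brakes: the first is an inhibitor of cytokine signalling through JAK and STAT proteins, and the second is a secreted enzyme that oxidises aromatic amino acids and restrains T cells. Traf1, an adaptor of TNF receptors, and Birc3, a ubiquitin ligase that limits cell death, are known targets of NF-κB. Cacnb3 encodes a regulatory subunit of voltage-gated calcium channels, and Tmem123 a mucin-like protein of the cell membrane. VD3 acts through a nuclear receptor and is known for holding DCs in a less mature, tolerogenic state.

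A cell was kept if it had 300 genes or more, fewer than 100000 UMIs, and less than 10% of them mitochondrial. This left 7257 untreated, 8825 VD3 and 7969 Ndrg2-KO DCs with 132574308, 116461484 and 143627482 UMIs, and 1948, 5681 and 3403 cells from the control DC, Ndrg2-KO DC and blank wounds with 29675507, 49240341 and 34905741 UMIs. The median mitochondrial share per cell was 5.30% in untreated, 5.60% in VD3 and 6.60% in Ndrg2-KO DCs. Between 1 and 19 cell barcodes were shared by any pair of libraries, at most 0.264% of the smaller one. The DC label was checked on Itgax, the integrin CD11c, at 146, 77.8 and 263 UMIs per 1000000 UMIs (CPM) in untreated, VD3 and Ndrg2-KO DCs, and on the T cell gene Cd3e, which had 11, 7 and 1 UMIs. Flt3, a receptor of DC progenitors, was low at 2.69, 1.10 and 0.794 CPM. Ndrg2, the targeted gene, was at 4.62 CPM in untreated, 1.42 CPM in VD3 and 0.884 CPM in Ndrg2-KO DCs, and since 3′ ends are counted this does not show the edit itself. Each value below comes from 1 library, so no test between conditions could be made, and every interval is an exact 95% interval that covers counting error only.

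The 8 genes lie on 7 chromosomes. Per GENCODE M21 on GRCm38, Fscn1 (ENSMUSG00000029581) is at chr5:142960343-142973185 on the plus strand and Il4i1 (ENSMUSG00000074141) at chr7:44816387-44840809 on the plus strand, where it overlaps Nup62 on the same strand and Atf5 and Tbc1d17 on the other. Reads in that overlap could count for another gene, so the level of Il4i1 is the least certain of the 8 in this respect. Socs2 is on chromosome 10, Cacnb3 on 15, Marcksl1 on 4 and Traf1 on 2. Tmem123 and Birc3 are near neighbours on chromosome 9, with 54.4 kb and the related gene Birc2 between them. RefSeq promoters (GRCm38.p6, 250 bases before to 50 after the start) matched 7 of the 8 genes, all but Socs2, with 9 windows. The first 250 bases are printed for the gene with the lowest ratio in Ndrg2-KO DCs (Fscn1), the gene with the highest ratio in VD3 DCs (Il4i1), and the pair known as NF-κB targets (Traf1 and Birc3), each read 5′ to 3′ on the strand of its gene. Capitals mark a TATA box (TATAAA, first base at -31 from the start of Fscn1) and a GC box (GGGCGG, first base at -44 from the start of Il4i1). The RefSeq start used for the Il4i1 window lies inside the GENCODE gene given above, downstream of the first base of that gene. They stand at chr5:142960105-142960354 (plus), chr7:44836038-44836287 (plus), chr2:34961773-34962022 (minus) and chr9:7873171-7873420 (minus).

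Fscn1: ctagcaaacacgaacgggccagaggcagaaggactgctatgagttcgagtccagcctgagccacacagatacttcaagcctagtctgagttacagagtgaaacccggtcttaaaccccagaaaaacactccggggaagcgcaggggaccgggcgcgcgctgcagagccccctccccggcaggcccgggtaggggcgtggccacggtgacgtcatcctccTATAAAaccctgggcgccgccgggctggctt
Il4i1: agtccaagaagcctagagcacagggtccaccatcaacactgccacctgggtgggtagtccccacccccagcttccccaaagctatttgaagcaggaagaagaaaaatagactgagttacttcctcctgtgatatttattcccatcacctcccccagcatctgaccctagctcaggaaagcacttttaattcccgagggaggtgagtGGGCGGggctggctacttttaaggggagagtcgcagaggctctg
Traf1: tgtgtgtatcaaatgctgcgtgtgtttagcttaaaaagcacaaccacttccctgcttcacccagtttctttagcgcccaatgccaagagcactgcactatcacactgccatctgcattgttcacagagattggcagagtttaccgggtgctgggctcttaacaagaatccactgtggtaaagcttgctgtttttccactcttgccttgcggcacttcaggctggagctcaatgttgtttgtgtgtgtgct
Birc3: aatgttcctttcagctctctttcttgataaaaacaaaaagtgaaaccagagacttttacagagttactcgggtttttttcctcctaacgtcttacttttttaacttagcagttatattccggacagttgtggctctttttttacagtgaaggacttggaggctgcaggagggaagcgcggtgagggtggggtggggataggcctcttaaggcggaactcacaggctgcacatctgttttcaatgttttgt

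The 4 windows differ in base composition, with 62.4% G and C for Fscn1, 53.2% for Il4i1, 48.0% for Traf1 and 43.6% for Birc3, against a median of 52.4% over all 32851 promoters. The letters of 5 motifs were searched on both strands of all 9 windows. GC boxes were in 6 of the 9 windows and in 35.7% of all promoters, and the TATA box in 1 of 9 and in 13.6% of all. A core of the NF-κB site, written as GGG and TTCC with 3 free bases between them, was in none of the 9 windows and in 5.56% of all promoters. An AP-1 site (TGANTCA) was in none, against 7.81% of all. A loose form of the vitamin D receptor repeat, GNTCA followed after 4 free bases by GNTCA, was also in none, against 230 of the 32851 promoters. These letters are thus absent from the windows searched, and nothing follows from this about any factor.

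In untreated DCs each of the 8 genes was well counted. Birc3 was at 63.7 CPM (62.3 to 65.0). The molecules of migration came to 219 CPM (217 to 222) for Fscn1 and 230 CPM (227 to 232) for Marcksl1. The brakes came to 316 CPM (313 to 319) for Socs2 and 211 CPM (209 to 214) for Il4i1. Cacnb3 was at 236 CPM (234 to 239), Tmem123 at 523 CPM (519 to 527) and Traf1 at 143 CPM (141 to 145). Counts of different genes also depend on how well each is captured, so these levels were not ranked against each other.

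With VD3 the 8 genes did not move together. Il4i1 stood apart at 524 CPM (520 to 528), 2.48-fold its untreated level, a log2 ratio of 1.31 (1.29 to 1.33) that was exceeded by 1.88% of the genes tested. Il4i1 was the 1 member at least 2-fold higher, where 2.99% of all 10935 genes tested were, and 0 members were at least 2-fold lower, where 6.02% of all genes were. Socs2 was at 393 CPM (389 to 396), Cacnb3 at 274 CPM (271 to 277), Tmem123 at 615 CPM (611 to 620) and Birc3 at 71.5 CPM (69.9 to 73.0), each above the untreated library with log2 ratios of 0.31, 0.21, 0.23 and 0.17. Fscn1, the actin bundler, was lower at 174 CPM (172 to 177) with a log2 ratio of -0.33 (-0.36 to -0.30), and Marcksl1 was lower at 203 CPM (200 to 205) with a log2 ratio of -0.18. Traf1 was at 141 CPM (139 to 143), and the interval of its log2 ratio, -0.02 (-0.05 to 0.01), held 0. The median log2 ratio of the 8 was 0.19 with an SD over the genes of 0.50, against a median of -0.09 and an SD of 0.72 over all genes tested.

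These small VD3 differences turned on how cells were weighted. When each cell counted equally in place of each UMI, the median of the 8 became -0.141, Il4i1 alone stayed above 0 at 0.917, short of 2-fold, and Socs2, Cacnb3, Tmem123 and Birc3 turned to -0.002, -0.182, -0.099 and -0.020. Cells with a Ccr7 UMI had a median of 13881 UMIs with VD3 and 14709 without treatment, while cells with none had 12472 and 18475, so that cells with a Ccr7 UMI were the deeper ones in the VD3 library and the shallower ones in the untreated library. The higher level of Il4i1 and the lower levels of Fscn1 and Marcksl1 were found under both weightings, whereas no direction can be given for the other 5 genes.

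**Figure D1:**
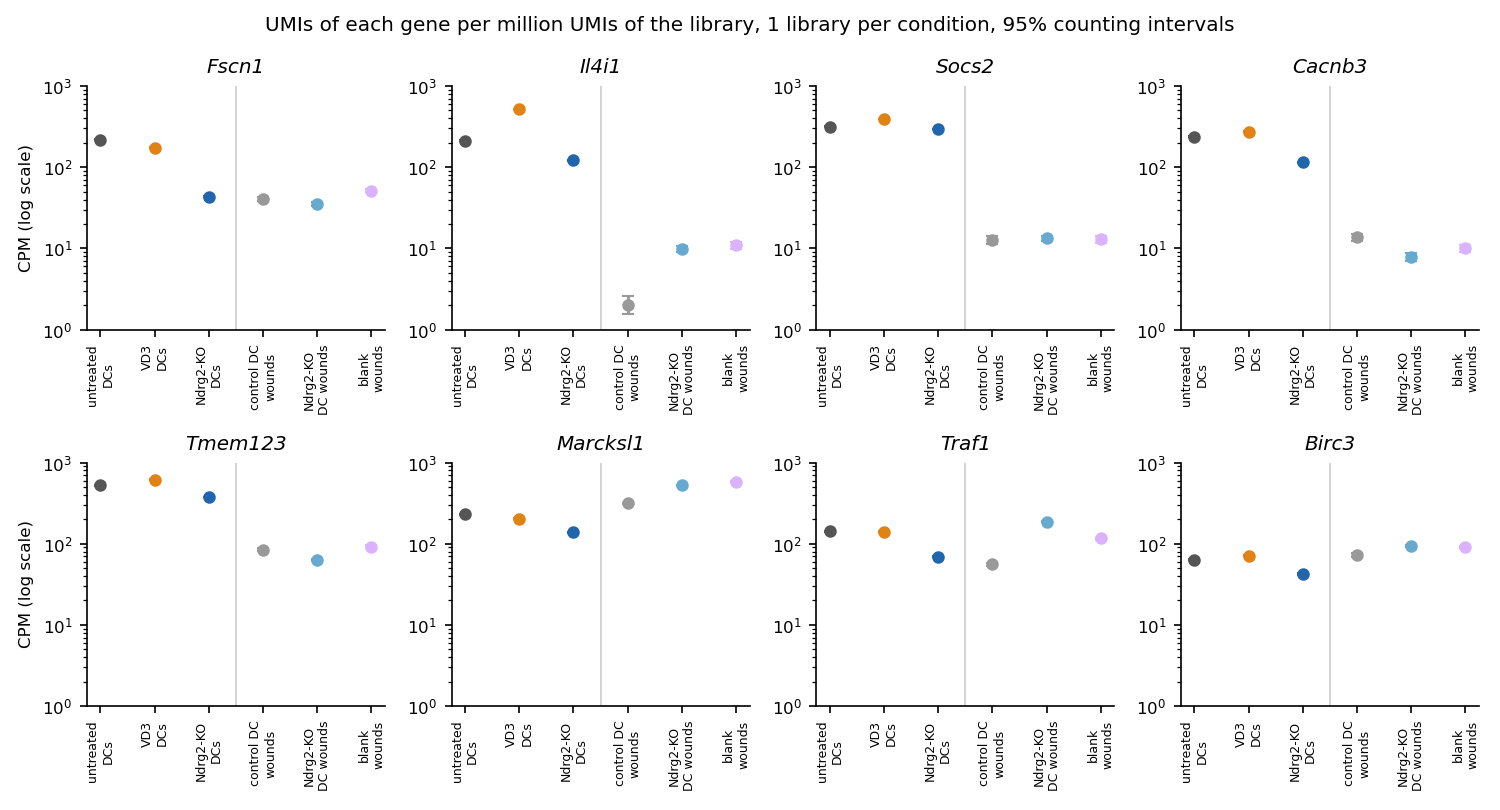
CPM of the 8 genes on a log axis (y) in each of the 6 libraries (x), with exact 95% intervals for counting error and 1 library per condition. Fscn1 is highest in untreated DCs (219 CPM) and lowest of the DC libraries in the knockout (43.4 CPM), Il4i1 peaks at 524 CPM with VD3, and Marcksl1 and Birc3 are higher in each wound library than in Ndrg2-KO DCs.

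In Ndrg2-KO DCs all 8 genes were below the untreated library, but by very different amounts. Fscn1 was at 43.4 CPM (42.4 to 44.5), 5.04-fold below untreated cells, with a log2 ratio of -2.33 (-2.37 to -2.29), and 1.56% of the genes tested had a lower ratio. Traf1 at 69.1 CPM (67.7 to 70.4) and Cacnb3 at 115 CPM (113 to 117) were 2.08-fold and 2.05-fold lower, with log2 ratios of -1.05 (-1.09 to -1.02) and -1.04. These 3 were the members at least 2-fold lower, where 6.90% of all 11243 genes tested were, and 0 members were at least 2-fold higher, where 8.26% of all genes were. Cacnb3 and Traf1 were just past the 2-fold line and Il4i1 the nearest short of it. Il4i1 was at 121 CPM (119 to 123) with a log2 ratio of -0.80, Marcksl1 at 138 CPM (136 to 140) with -0.735, Birc3 at 42.6 CPM (41.5 to 43.6) with -0.58 and Tmem123 at 374 CPM (371 to 377) with -0.48.

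Socs2, the inhibitor of cytokine signalling, was the exception at 296 CPM (294 to 299), a log2 ratio of -0.09 (-0.11 to -0.07) in the middle of all genes, 47.7% of which had a lower ratio. The median log2 ratio of the 8 was -0.77 with an SD of 0.66, against -0.06 and 0.98 over all genes tested. All 8 stayed below 0 under each of the 7 alternative settings, but the number past 2-fold did not stay at 3. In cells with under 5% mitochondrial UMIs, which left 2677 untreated and 1623 Ndrg2-KO cells at the depth used below, the median was -1.22. There 5 genes were at least 2-fold lower, where 6.08% of all genes were. With all deposited barcodes, with median-ratio scaling and with cells weighted equally, 1 gene was, against 6.85%, 6.15% and 6.08% of all genes. Fscn1 was then at -2.20, -2.27 and -1.77. Ndrg2-KO and VD3 DCs were both compared with the same untreated library, so any likeness between these ratios is in part built in.

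Set against the VD3 library directly, Ndrg2-KO DCs were lower in all 8 genes, with log2 ratios from -0.405 for Socs2 to -2.11 for Il4i1 and a median of -0.89 against 0.01 over all genes. Il4i1, Fscn1, Cacnb3 and Traf1 were at least 2-fold lower, 4 of 8 members against 6.69% of 11185 genes, and 0 were at least 2-fold higher, against 11.3%. Il4i1 was thus the gene with the widest gap between the treatments, 4.32-fold, and Fscn1 the next with 4.01-fold. When cells were weighted equally, 2 of the 8 were at least 2-fold lower, against 5.83% of all genes, and the median was -0.405.

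**Figure D2:**
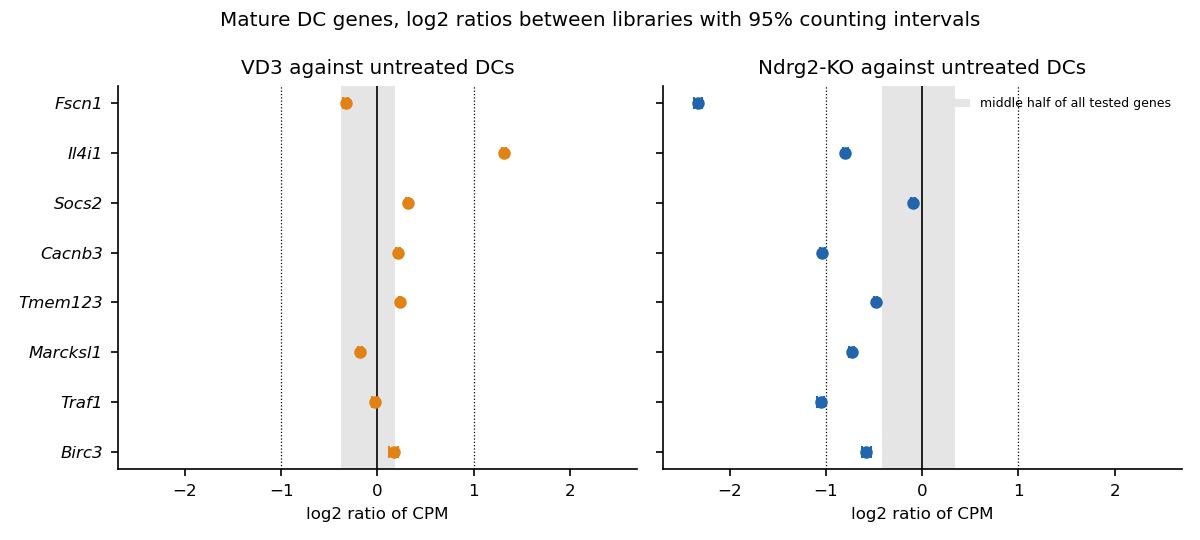
Log2 ratios of CPM (x) for the 8 genes (y) in VD3 and Ndrg2-KO DCs against the same untreated library, with 95% counting intervals, dotted lines at 2-fold and a grey band for the middle of all genes tested, from the lower to the upper quartile. With VD3 only Il4i1 passes a dotted line at 1.31, and in Ndrg2-KO DCs every gene lies left of 0, from -2.33 for Fscn1 to -0.09 for Socs2, the only one inside the band.

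Genes with related roles were counted beside the 8. Among 27 other genes of mature DCs, the knockout had 13 at least 2-fold lower and 1 higher, where 6.90% and 8.26% of all genes tested were. Their median log2 ratio was -0.948, against -0.06 over all genes. The lowest were Tnfrsf4, the co-stimulatory receptor OX40, at -2.36 and Serpinb6b, a protease inhibitor, at -2.28. Aldh1a2, which makes retinoic acid, was the 1 that was higher at 1.09. With VD3, 5 of the 27 were lower and 1 higher, where 6.02% and 2.99% of all genes were, and the median was -0.271 against -0.09 over all genes. The ends of that range were Cd40, the receptor through which T cells license DCs, at -1.503 and Il15, a cytokine for memory T and NK cells, at 1.06. Of 9 genes of DC migration, among them Ccr7, which is also in the first list, 2 were at least 2-fold lower in each comparison. Over all genes tested, 6.90% were in Ndrg2-KO and 6.02% in VD3 DCs. The 2 genes were not the same in both. In Ndrg2-KO DCs they were Ccr7 at -1.01 and Myo1g, a myosin, at -1.07, which were at 0.75 and -0.435 with VD3. With VD3 they were Adam8, a membrane protease, at -1.33 and Ezr, which links actin to the membrane, at -1.22, which were at 0.58 and -0.43 in the knockout. In each comparison 0 of the 9 were at least 2-fold higher and 4 lay above 0, with Tmsb10 highest in the knockout at 0.94. The medians of the 9 were -0.430 in the knockout and -0.435 with VD3, against -0.06 and -0.09 over all genes.

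The 14 genes of the NF-κB pathway, which includes known regulators of Traf1 and Birc3, were all below 0 in Ndrg2-KO DCs, 6 of them at least 2-fold lower, where 6.90% of all genes were, with a median of -0.777 against -0.06 over all genes. Cd40 was at -1.94 and Nfkbie, an inhibitor of the pathway, at -1.29. With VD3 the same list was split, 8 above and 6 below 0, with a median of 0.081 and Nfkbia, the main feedback inhibitor, at 0.95. In it 2 of 14 were at least 2-fold lower, Cd40 at -1.503 and Bcl2l1, an inhibitor of cell death, at -1.23, and 0 were higher, against 6.02% and 2.99% of all genes. The 9 other genes of the TRAF and IAP families had medians of -0.582 in Ndrg2-KO and -0.258 in VD3 DCs, and 1 of 9 was past 2-fold in each, Traf4 at -1.81 and -1.01, a share near that of all genes. Birc2, the relative that stands beside Birc3, was at -0.58 and 0.56. Of 7 relatives of Socs2, which inhibit signalling in a like way, 3 were at least 2-fold lower in Ndrg2-KO DCs, against 6.90% of all genes, Cish at -1.58, Socs1 at -1.503 and Socs3 at -1.39. The other 4 were Socs4 at -0.40, Socs5 at 0.04, Socs7 at 0.23 and Socs6 at 0.73. With VD3, 1 of the 7 was at least 2-fold lower, Socs6 at -1.27, and 0 were higher, against 6.02% and 2.99% of all genes. The median of the 7 was -0.075, near the -0.086 of all genes. Of 7 relatives of the remaining genes, 4 had enough counts in that comparison, and Cacnb4, another channel subunit, had 121 untreated and 1611 knockout UMIs, which gives a log2 ratio of 3.62. In a list of 10 genes of immature myeloid cells, 4 were at least 2-fold higher and 1 lower in Ndrg2-KO DCs, against 8.26% and 6.90% of all genes, and 7 were lower with VD3, against 6.02%. The lists overlap, so their counts are not separate. Cd40, Relb and Socs1, each at least 2-fold lower in Ndrg2-KO DCs, are also among the other mature DC genes counted above. Icam1, of the NF-κB list, is also a migration gene.

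To count cells at equal depth, each DC was drawn down to 2000 UMIs, which left out 472 untreated, 1149 VD3 and 134 Ndrg2-KO cells. At this depth Fscn1 was seen in 27.2% of untreated, 22.1% of VD3 and 8.77% of Ndrg2-KO cells (43.0%, 39.6% and 18.8% before drawing). Il4i1 was seen in 27.9%, 40.6% and 17.8% (46.8%, 51.1% and 35.7% before drawing). Socs2 was seen in 2713 of 6785 untreated cells, 3426 of 7676 VD3 cells (44.6%) and 3227 of 7835 Ndrg2-KO cells (41.2%), shares that lay close together (72.1%, 71.5% and 86.6% before drawing). The shares of Cacnb3, Tmem123, Marcksl1 and Traf1 were 31.5%, 45.3%, 34.1% and 24.3% in untreated cells, 32.5%, 49.4%, 29.8% and 21.6% in VD3 cells, and 19.2%, 40.3%, 24.4% and 14.4% in Ndrg2-KO cells. Before drawing they were 49.3%, 75.4%, 69.7% and 55.9%, then 47.8%, 68.3%, 62.5% and 47.5%, then 39.5%, 84.9%, 61.1% and 40.1%.

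Free RNA puts some UMIs in cells that do not make a gene, so the same shares were taken in cells with at least 3 neutrophil markers. There were 446, 572 and 82 such cells in the untreated, VD3 and Ndrg2-KO libraries, with medians of 13482, 9590 and 5468 UMIs before drawing. Their Fscn1 share was 2.91%, 3.67% and 3.66%, and their Il4i1 share 3.14%, 6.99% and 4.88%, all well below the library. Their Socs2 share was 8.74%, 17.7% and 17.1%, also below the library. Cacnb3 was seen in 3.59%, 5.59% and 8.54% of them and Tmem123 in 13.0%, 17.3% and 17.1%, again below the library. Traf1 was seen in 2.47%, 2.27% and 8.54%, though neutrophil-marker cells of the wounds also held Traf1. Birc3 differed: its share was 12.6%, 13.3% and 9.29% over all cells (55.3%, 48.5% and 47.2% before drawing) and 7.17%, 14.0% and 12.2% in neutrophil-marker cells, so that in VD3 and Ndrg2-KO DCs it did not exceed this background, although neutrophil-marker cells also held Birc3 in the wounds described below. Marcksl1 was at 24.4% against 20.7% in Ndrg2-KO DCs, but neutrophil-marker cells of the wounds also held Marcksl1, so their share is no background for this gene. The number of neutrophil-marker cells moved with the knockout, as did that of cells with at least 3 proliferation markers, 1135, 1001 and 703, and their part in the ratios was not tested.

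The 8 genes were next described on both sides of a split of the drawn cells by Ccr7, the receptor that defines migratory DCs and is not one of the 8. A Ccr7 UMI was found in 38.2% of untreated cells (37.0 to 39.3), in 46.3% of VD3 cells (45.2 to 47.4) and in 24.8% of Ndrg2-KO cells (23.8 to 25.8), against 3.81%, 6.82% and 7.32% of neutrophil-marker cells. Before drawing the shares were 47.6%, 49.2% and 39.1%. The higher share with VD3 was not found in cells with under 5% mitochondrial UMIs, where it was 35.3% against 35.1%, whereas Ndrg2-KO cells were then at 18.9%. Ccr7 itself differed between the libraries, so it also set which cells fell on each side, and the split missed some cells that held it. Counted with all their UMIs, cells without a Ccr7 UMI at the drawn depth still had Ccr7 at 74.1, 108 and 40.1 CPM in untreated, VD3 and Ndrg2-KO DCs, log2 ratios of 0.54 with VD3 and -0.89 in the knockout. Fewer mature cells and fewer transcripts per mature cell therefore cannot be told apart by this split.

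In untreated DCs, cells with a Ccr7 UMI held more of every member. Fscn1 was at 556 CPM in them and 51.1 CPM in the other cells, 10.9-fold apart, and Cacnb3 at 589 and 60.9 CPM, 9.67-fold apart. Il4i1 was 8.51-fold, Traf1 6.58-fold, Tmem123 6.26-fold and Marcksl1 4.31-fold higher on the Ccr7 side. Socs2 and Birc3 were the least bound to it, at 3.86-fold and 2.15-fold. In Ndrg2-KO DCs this contrast was steeper for Fscn1 (21.6-fold), Cacnb3 (13.6-fold), Il4i1 (12.0-fold), Traf1 (11.0-fold) and Marcksl1 (6.51-fold), near the untreated one for Tmem123 (6.93-fold) and Birc3 (2.22-fold), and flatter for Socs2 (2.12-fold). In VD3 DCs it was flatter than in untreated cells for all 8 genes, from 8.44-fold for Fscn1 to 2.04-fold for Socs2 and 1.47-fold for Birc3. Cells with a Ccr7 UMI held 65.9% of all Socs2 UMIs in untreated, 66.9% in VD3 and 32.1% in Ndrg2-KO DCs, while for Fscn1 they held 84.5%, 89.3% and 82.8%.

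Within cells with a Ccr7 UMI, the knockout had 7 of the 8 genes below the untreated level. Fscn1 was at 197 CPM against 556 CPM, a log2 ratio of -1.498. Il4i1 was at 484 against 514 CPM (-0.09), Tmem123 at 1245 against 1192 CPM (0.06) and Marcksl1 at 448 against 471 CPM (-0.07). Socs2, Cacnb3, Traf1 and Birc3 were between -0.26 and -0.35. The median was -0.279 against 0.116 over all genes, and Fscn1 was the 1 member at least 2-fold lower, against 3.08% of all genes, with 0 higher against 6.48%. In cells without a Ccr7 UMI, Fscn1 was at 9.13 against 51.1 CPM (-2.48) and Traf1 at 24.5 against 50.2 CPM (-1.03), the 2 members at least 2-fold lower against 8.75% of all genes. On that side 0 were higher against 8.33%, and the median was -0.625. Socs2 went the other way there, at 246 against 162 CPM (0.60).

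With VD3, 7 of the 8 genes were also lower than in untreated cells among those with a Ccr7 UMI, from -0.81 for Fscn1 (317 against 556 CPM) and -0.66 for Marcksl1 (298 against 471 CPM) to -0.19 for Tmem123, with a median of -0.245 against 0.047 over all genes. Il4i1 was higher at 929 against 514 CPM (0.85), still short of 2-fold, so 0 members were past it in either direction, against 2.63% of all genes higher and 3.17% lower. In cells without a Ccr7 UMI, Il4i1 was at 135 against 60.4 CPM (1.16), the 1 member at least 2-fold higher against 3.33% of all genes, and 0 were lower against 5.30%. Socs2 was at 261 against 162 CPM (0.69) and Birc3 at 58.1 against 45.8 CPM (0.34) on that side. Tmem123, Cacnb3 and Marcksl1 were at 0.11, 0.06 and 0.01 there, while Fscn1 at -0.44 and Traf1 at -0.32 were lower. The median on that side was 0.085 against -0.095 over all genes.

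**Figure D3:**
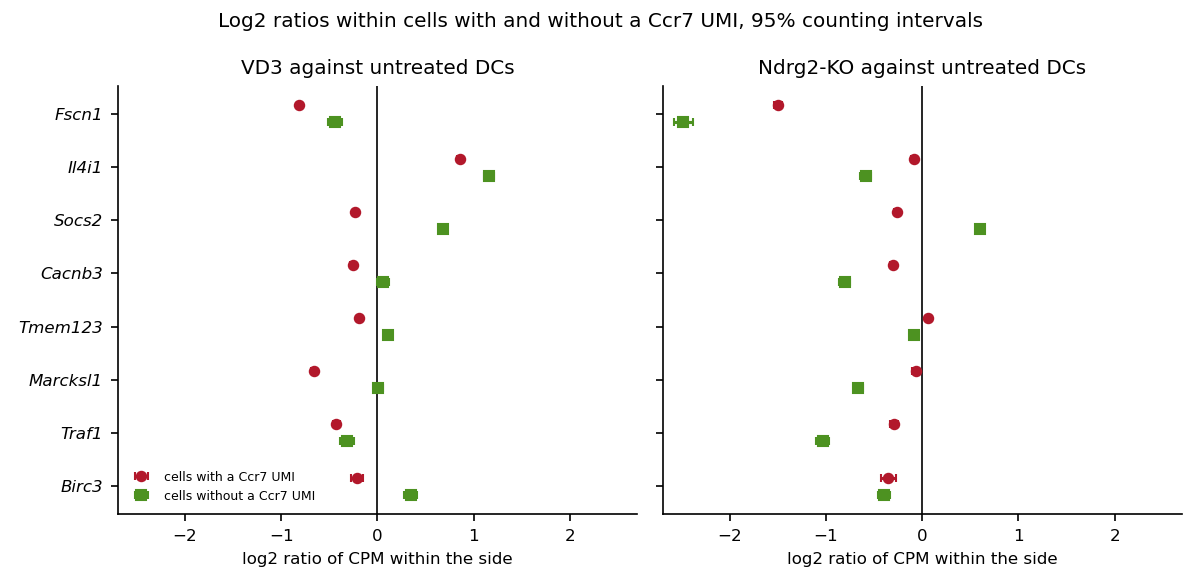
Log2 ratios of CPM (x) for the 8 genes (y) within cells with (circles) and without (squares) a Ccr7 UMI, for VD3 and Ndrg2-KO DCs against untreated DCs, with 95% counting intervals. Socs2 lies on opposite sides of 0 in both panels, at -0.23 and 0.69 with VD3 and at -0.26 and 0.60 in Ndrg2-KO DCs, while Fscn1 is left of 0 on both sides, at -1.498 and -2.484 in Ndrg2-KO DCs.

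Cells with a Ccr7 UMI held 33.4% of the UMIs of untreated, 49.8% of VD3 and 18.2% of Ndrg2-KO cells. As arithmetic on this split, each ratio was recomputed with only this share of UMIs changed from the untreated library, or with only the levels within its sides changed. Since both rest on the detection of Ccr7, they do not separate cell numbers from transcripts per cell. For Ndrg2-KO DCs, the shares alone gave a median of -0.500 and the levels alone -0.302, beside -0.772 for the drawn cells as they were. With at least 2 Ccr7 UMIs as the divide these values were -0.360 and -0.339, and under 5% mitochondrial UMIs they were -0.758 and -0.374. With VD3 the shares alone gave a median of 0.395 and the levels alone -0.156. These medians were 0.341 and -0.072 with at least 2 Ccr7 UMIs and 0.368 and -0.137 under 5% mitochondrial UMIs. Fscn1 in Ndrg2-KO DCs was at -0.62 from the shares and -1.61 from the levels, and Tmem123 at -0.49 and 0.03.

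Whether the genes were found in the same single cells was examined by correlation over the drawn cells of each library. In untreated DCs the 28 pairs had correlations from 0.092 to 0.528 with a median of 0.374 (6785 cells), all within one library and at equal depth. The medians were 0.226 in VD3 DCs (7676 cells) and 0.338 in Ndrg2-KO DCs (7835 cells). All of these rise with the number of UMIs drawn, to medians of 0.574, 0.397 and 0.475 at 5000 UMIs, and they are descriptions of sparse counts. Tmem123 and Cacnb3 formed the closest pair in the untreated library at 0.53, and they kept 0.46 with VD3 and 0.54 in the knockout. Tmem123 also had the highest mean correlation with the other 7 genes in untreated cells, 0.415, followed by Cacnb3 at 0.397 and Fscn1 at 0.378.

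Socs2 had the largest drop in mean correlation in both libraries. Its mean correlation with the other 7 was 0.339 in untreated, 0.177 in VD3 and 0.172 in Ndrg2-KO cells, and its pair with Fscn1 went from 0.364 to 0.179 and 0.121. Marcksl1 had 0.314, 0.176 and 0.342, low with VD3 and not in the knockout. Fscn1 itself had 0.378, 0.257 and 0.305, so the gene with the lowest ratio in Ndrg2-KO DCs was still found with the others. Knockout cells with a Fscn1 UMI held on average 4.29 of the other 7 genes and those without 1.41, beside 4.19 and 1.40 in untreated cells. Cells with a Socs2 UMI held on average 3.32 of the other genes in the untreated and 1.83 in the knockout library. Birc3 had mean correlations of 0.117, 0.052 and 0.098.

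**Figure D4:**
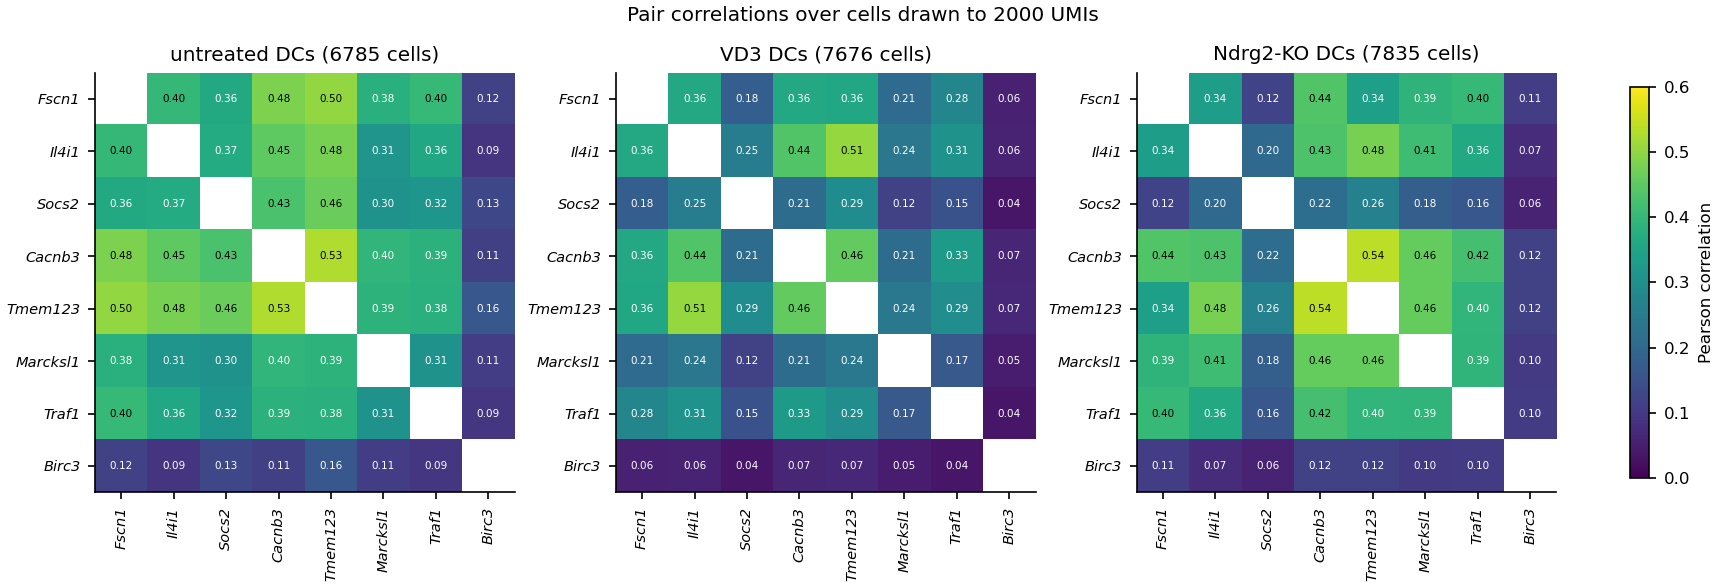
Pearson correlations between the 8 genes over single cells drawn to 2000 UMIs, in untreated, VD3 and Ndrg2-KO DCs, coloured from 0 to 0.6. The Socs2 row is brighter in untreated DCs and darker in the other two libraries, the Cacnb3 and Tmem123 pair stays between 0.46 and 0.54, and the Birc3 row is dark throughout.

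Counted per cell at 2000 drawn UMIs, 30.2% of untreated DCs had none of the 8 genes, 35.3% had at least 4 and 14.2% at least 6. These shares depend on the depth. Before drawing, Tmem123 alone was seen in 75.4% of untreated and Socs2 alone in 86.6% of Ndrg2-KO cells, so fewer cells then had none. The untreated cells fell into separate ends, with 2052 cells at 0 genes, 472 at 3 and 773 at 5. In VD3 DCs 21.2% had none, 35.7% had at least 4 and 9.54% at least 6, so at this drawn depth fewer cells had none and fewer were rich. In Ndrg2-KO DCs 30.9% had none, 19.1% at least 4 and 5.88% at least 6. Of 4362 genes compared, those whose level followed the number of members per untreated cell most closely were Ccl22 at a correlation of 0.789 and Ccl5 at 0.758, both chemokines that attract T cells, and Ccr7 at 0.743. Fabp5, a fatty acid carrier, came next at 0.736, then Pkib at 0.681, AW112010 at 0.672, Rpsa at 0.671 and Cytip at 0.656. In Ndrg2-KO cells Fabp5, there seen in 82.7% of drawn cells, had a correlation of 0.288, while that of Ccl5 was 0.796.

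In the wound libraries the 8 genes were counted over all wound cells, few of which were DCs. Against wounds with control DCs, those with Ndrg2-KO DCs had Il4i1 at 9.81 CPM (8.95 to 10.7) against 2.02 CPM (1.54 to 2.60), 4.85-fold higher, and Traf1 at 187 against 55.7 CPM, 3.35-fold higher. These 2 members were past 2-fold, where 3.83% of 9738 genes were higher, and 0 were lower, where 3.97% were. Marcksl1 was at 524 against 314 CPM (log2 ratio 0.74), Birc3 at 92.9 against 72.6 CPM (0.355) and Socs2 at 13.4 against 12.7 CPM (0.07), with an interval that held 0. Cacnb3 at 7.86 against 13.7 CPM (-0.80), Tmem123 at 63.4 against 84.7 CPM (-0.42) and Fscn1 at 35.2 against 40.1 CPM (-0.19) were lower.

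Wounds with blank hydrogels, which had received no DCs, were compared with the same control DC wounds. Il4i1 at 10.9 CPM was 5.38-fold and Traf1 at 116 CPM 2.08-fold higher, again 2 members, where 2.97% of 9239 genes were higher, and 0 were lower, where 2.65% were. With cells weighted equally 1 of them was at least 2-fold higher, where 1.26% of all genes were. Marcksl1 was at 580 CPM (0.89), Fscn1 at 51.5 CPM (0.36), Birc3 at 91.8 CPM (0.34), Tmem123 at 91.8 CPM (0.12), Socs2 at 12.9 CPM (0.02) and Cacnb3 at 10.0 CPM (-0.45). The medians of the 8 were 0.212 and 0.349 in the Ndrg2-KO DC and blank wounds, against -0.109 and -0.010 over all genes, and the first became -0.151 with cells weighted equally. The control wound library is shared by both comparisons.

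The makeup of these libraries differed widely. Cells were classed at 1000 UMIs by at least 3 markers of a class, and neutrophil-marker cells were 23.2% of the cells in control DC, 50.2% in Ndrg2-KO DC and 44.9% in blank wounds, while fibroblast-marker cells were 25.4%, 9.40% and 10.8%. Cells with at least 3 DC markers numbered 7, 5 and 9. In them Fscn1 was at 491, 2371 and 1247 CPM and Tmem123 at 1446, 2804 and 959 CPM, the highest of the classes plotted, though too few cells stand behind these values to compare libraries. They held 28.9%, 10.9% and 17.1% of all Ccr7 UMIs, while 62.6%, 57.7% and 66.7% lay in cells that reached no class, so most of the Ccr7 signal of the wounds is outside the DC values given here. Outside them the genes went separate ways. Fibroblast-marker cells held 66.7%, 68.1% and 48.9% of all Fscn1 UMIs and 76.2%, 62.3% and 46.3% of all Cacnb3 UMIs, beside 52.4%, 29.6% and 31.3% of the UMIs of all genes. Fscn1 was at 316, 78.8 and 325 CPM in the 12, 10 and 7 endothelial-marker cells. Marcksl1 was highest in neutrophil-marker cells, at 1336, 1151 and 1780 CPM. Traf1 was at 210, 447 and 239 CPM in neutrophil-marker and at 247, 293 and 315 CPM in T cell-marker cells, above fibroblast-marker and macrophage- or monocyte-marker cells. No UMI of Fscn1, Il4i1, Socs2 or Cacnb3 was found in the 447 neutrophil-marker cells of control DC wounds, which held 1710809 UMIs. The 2803 neutrophil-marker cells of Ndrg2-KO DC wounds held 130, 114, 69 and 50 UMIs of these genes, and the 1498 of blank wounds 37, 24, 25 and 10. Ccr7 had 0, 174 and 118 UMIs in the neutrophil-marker cells of control DC, Ndrg2-KO DC and blank wounds. Of these cells, 63, 661 and 311 had only the 3 markers needed. Whether cells of other kinds stand in this class was not tested.

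**Figure D5:**
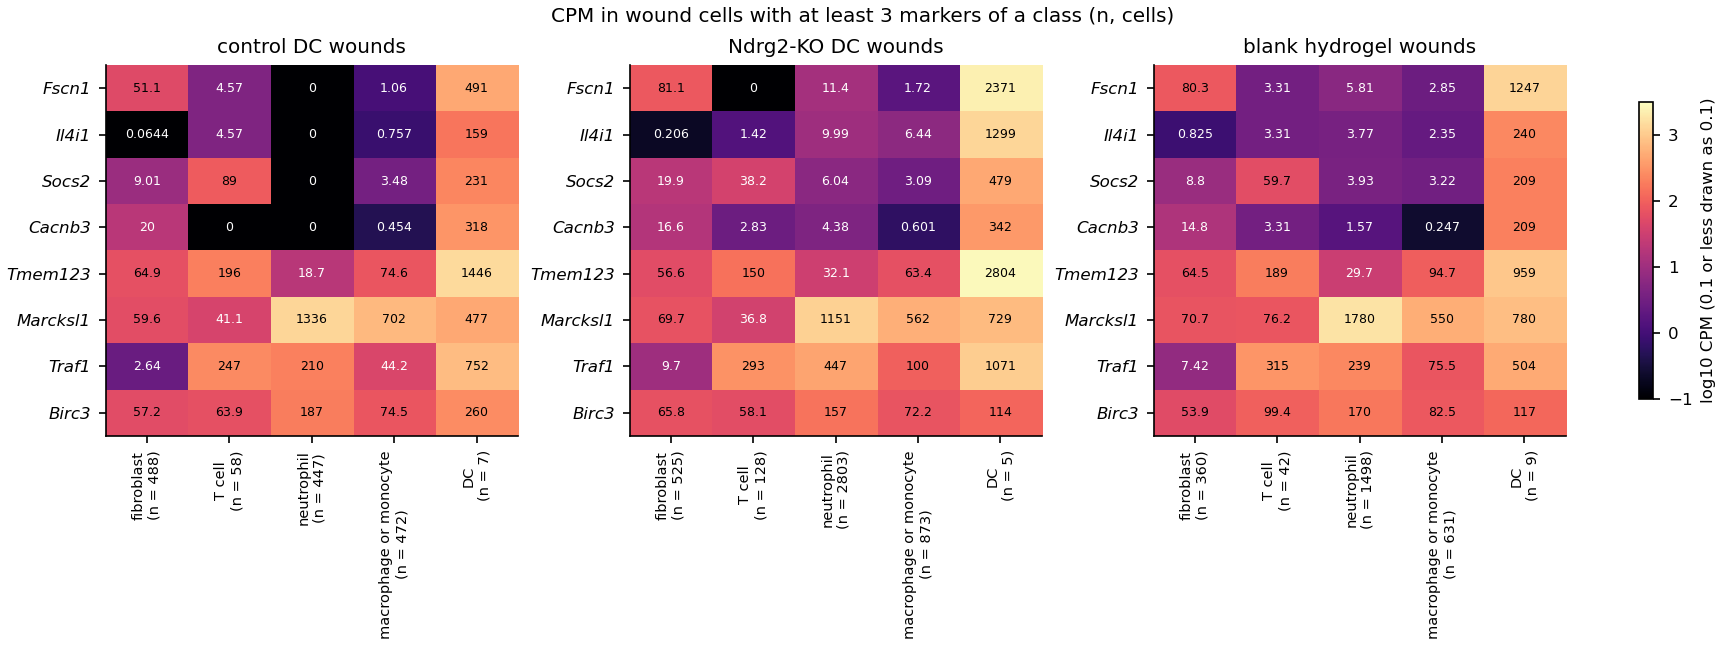
CPM of the 8 genes (rows) in wound cells with at least 3 markers of fibroblasts, T cells, neutrophils, macrophages or monocytes, or DCs (columns, with the number of cells), 1 panel per library, coloured on a log10 scale with 0.1 CPM or less drawn as 0.1. Fscn1 reaches 51.1 to 81.1 CPM in fibroblast-marker cells and 491 to 2371 CPM in the 5 to 9 DC-marker cells, Marcksl1 exceeds 1000 CPM in neutrophil-marker cells, and Birc3 is above 50 CPM in each of these 5 classes.

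Within single classes, Traf1 was also higher in Ndrg2-KO DC wounds. Its log2 ratio against control DC wounds was 1.09 (0.94 to 1.25) in neutrophil-marker, 1.18 (0.995 to 1.37) in macrophage- or monocyte-marker and 1.88 (1.37 to 2.42) in fibroblast-marker cells, and 0.25 (-0.09 to 0.60) in T cell-marker cells. In blank wounds the same ratios were 0.19, 0.77 and 1.49 in the first 3 classes. In fibroblast-marker cells Traf1 rested on 41, 141 and 81 UMIs in control DC, Ndrg2-KO DC and blank wounds, at 2.64, 9.70 and 7.42 CPM. The part of free RNA from other cells in these low levels was not tested. Socs2, whose interval over the whole Ndrg2-KO DC wound library held 0, was higher in its fibroblast-marker cells at 19.9 against 9.01 CPM (1.14, 0.845 to 1.44), and at 8.80 CPM in those of blank wounds (-0.035, -0.425 to 0.35). Marcksl1, higher over the whole Ndrg2-KO DC wound library, was lower in its neutrophil-marker (-0.215) and macrophage- or monocyte-marker cells (-0.32) and higher in its fibroblast-marker cells, at 69.7 against 59.6 CPM (0.23, 0.10 to 0.36). Birc3 was at -0.26, -0.045 and 0.20 (0.07 to 0.335) in the same 3 classes. Fscn1, lower over the whole Ndrg2-KO DC wound library, was higher in its fibroblast-marker cells at 81.1 against 51.1 CPM (0.665), as it was in those of blank wounds at 80.3 CPM (0.65). Il4i1 in macrophage- or monocyte-marker cells rested on 5 UMIs in control DC and 75 in Ndrg2-KO DC wounds, a log2 ratio of 3.09 (1.80 to 4.75). Of all Il4i1 UMIs, 68.3%, 44.3% and 72.1% lay in cells that reached no class in control DC, Ndrg2-KO DC and blank wounds, and 23.6% in the neutrophil-marker cells of Ndrg2-KO DC wounds.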

How the data were processed

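Single-cell RNA libraries of 3 DC cultures and 3 wound groups were analysed, 1 per condition, with groups taken from the labels. The deposited values are UMI counts per gene and barcode, which the authors obtained from Cell Ranger (3.1.0 for DC and 6.0.0 for wound libraries per the file headers) and which are not normalised. The labels' notes name mm9 and the study's methods mm10, so positions here come from GENCODE M21 and RefSeq on GRCm38, matched by gene ID or symbol. The notes also list Seurat 3.1.1.

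Counts were summed per gene over kept cells and scaled to 1000000 UMIs (CPM). A gene was tested with at least 200 UMIs in one of the 2 libraries and counted as higher or lower past 2-fold, with 3 UMIs in place of a count of 0. Log2 ratios have conditional binomial, CPM exact Poisson and shares Clopper-Pearson 95% intervals, for counting error only. Cells were drawn to 2000 (DC) or 1000 (wound) UMIs without replacement, with seed 1. Correlations were Pearson's, of ln(1 + UMIs). Doublets were not called and were kept below 100000 UMIs, and an alternative left out the 6% of cells with the most UMIs. Kept depth ran from 29675507 to 143627482 UMIs, which gave Birc3 in untreated DCs an interval of 62.3 to 65.0 CPM. The members, gene lists and markers were chosen with earlier results of these data known. Of each list, the 2 highest and 2 lowest log2 ratios could be named, some others are named as near relatives after their values were seen, and 8 genes were named for likeness. Alternatives were other cell filters, fold limits, scalings, draws and Ccr7 limits. The statistics were tested on simulated data. Python 3.11.15, NumPy 2.4.6, SciPy 1.17.1, pandas 2.3.3 and Matplotlib 3.10.9 were used.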

Additional observations from a re-analysis of the deposited data

Results flagged for a closer look

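Genes whose ratio to the untreated library had opposite signs in cells with and without a Ccr7 UMI, with counting intervals that left out 0 on both sides, are listed first. None of these differences between the sides was tested, because there was 1 library per condition, and each value is a log2 ratio of CPM. Socs2 had the widest split in both comparisons, at -0.233 with and 0.686 without a Ccr7 UMI in VD3 DCs and at -0.261 and 0.601 in Ndrg2-KO DCs. Birc3 was at -0.211 and 0.344 in VD3 DCs. Tmem123 was at -0.193 and 0.110 in VD3 DCs and, close to 0 on both sides, at 0.063 and -0.085 in Ndrg2-KO DCs. Cacnb3 (-0.257 and 0.060) and Marcksl1 (-0.659 and 0.010) also had opposite signs in VD3 DCs, but their intervals without a Ccr7 UMI, -0.001 to 0.121 and -0.036 to 0.056, held 0.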

How the results depend on the processing

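With 1 library per condition no result had a test, so each alternative is judged by how far a value moved and whether its sign changed. Of the values of single genes, 338 moved by less than their counting interval, 295 by more and 19 changed sign, and of the medians and counts 100, 44 and 2 did. All 8 genes stayed below 0 in Ndrg2-KO DCs against untreated and against VD3 DCs under the 7 alternatives run. No paired analysis was possible because each group held 1 library. Depth limits Il4i1, Socs2 and Cacnb3 in the wounds.

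The median log2 ratio of the 8 genes in VD3 against untreated DCs, 0.190, became 0.106 in cells with under 5% mitochondrial UMIs, 0.119 without the 6% of cells with the most UMIs, 0.265 with median-ratio scaling, 0.284 with library sizes without mitochondrial and ribosomal protein genes, and -0.141 with cells weighted equally, where 0 genes were past 2-fold and Socs2 was at -0.002, Cacnb3 at -0.182, Tmem123 at -0.099 and Birc3 at -0.020. For Ndrg2-KO against untreated DCs, -0.768 became -0.628 with all deposited barcodes, -1.218 under 5% mitochondrial UMIs, -0.801 without the deepest cells, -0.705 with median-ratio scaling, -0.512 with cells weighted equally and -0.866 without mitochondrial and ribosomal protein genes, and the count of 3 lower genes became 1, 5, 3, 1, 1 and at 1.5-fold 5. For Ndrg2-KO against VD3 DCs, -0.890 became -0.778, -1.259, -0.836, -0.405 and -1.082 under the same settings except median-ratio scaling, and 4 lower genes became 2 with cells weighted equally. In the wounds with Ndrg2-KO DCs, 0.212 became 0.356 with median-ratio scaling and -0.151 with cells weighted equally, where 1 gene was lower, as at 1.5-fold. With blank hydrogels, 0.349 became 0.213 with cells weighted equally, where 1 gene was higher and Tmem123 was at -0.136. For Ndrg2-KO against untreated DCs, 6.85% of all genes were lower with all barcodes, 6.08% under 5% mitochondrial UMIs and 6.21% without the deepest cells. With median-ratio scaling 6.15% were, and with cells weighted equally 6.08%. Under the latter, 5.83% were lower against VD3 DCs, 12.8% lower in Ndrg2-KO DC wounds and 1.26% higher in blank wounds. The 1 lower gene in Ndrg2-KO DC wounds is thus near the share of all genes. The causes of these shifts were not tested.

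Within the Ccr7 sides, the VD3 medians of -0.245 and 0.085 became -0.192 and 0.133 at 5000 UMIs, and that without Ccr7 0.192 under 5% mitochondrial UMIs, where Tmem123 was at -0.012. The Ndrg2-KO medians of -0.279 and -0.625 became -0.165 and -0.697 with at least 2 Ccr7 UMIs, where Marcksl1 with Ccr7 was at 0.048, and -0.401 and -0.837 under 5% mitochondrial UMIs, where Tmem123 with Ccr7 was at -0.351. At 5000 UMIs the median without Ccr7 was -0.509 and Tmem123 was at 0.189. The mitochondrial limit on these sides and the ratios within wound classes were added after the data were seen. Ratios within classes changed sign against the whole library in Ndrg2-KO DC wounds for Fscn1 in fibroblast-marker cells (0.665), Tmem123 in neutrophil-marker cells (0.781), and Marcksl1 (-0.215 and -0.321) and Birc3 (-0.256 and -0.045) in neutrophil-marker and macrophage- or monocyte-marker cells, and in blank wounds for Tmem123 (-0.008) and Birc3 (-0.087) in fibroblast-marker, Birc3 in neutrophil-marker (-0.136) and Marcksl1 in macrophage- or monocyte-marker cells (-0.351), and for Socs2 in fibroblast-marker cells (-0.035 against 0.024, with intervals that held 0). The median pair correlations of 0.374, 0.226 and 0.338 in untreated, VD3 and Ndrg2-KO DCs became 0.230, 0.150 and 0.232 at 1000 UMIs, 0.574, 0.397 and 0.475 at 5000 UMIs and 0.743, 0.678 and 0.508 without drawing.

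Counts over all genes moved by over 1.5 times as follows. With VD3, 327 higher genes became 499 with at least 50 UMIs, 828 at 1.5-fold and 159 under 5% mitochondrial UMIs, and 658 lower genes 1568 at 1.5-fold. For Ndrg2-KO against untreated DCs, 929 higher and 776 lower genes became 1786 and 1887 at 1.5-fold. For Ndrg2-KO against VD3 DCs, 1264 higher genes became 2246 at 1.5-fold, and 748 lower genes 1126 with at least 50 UMIs, 1671 at 1.5-fold and 461 under 5% mitochondrial UMIs. In Ndrg2-KO DC wounds, 373 higher genes became 856 at 1.5-fold and 177 with cells weighted equally, and 387 lower genes 710 with at least 50 UMIs, 1226 at 1.5-fold, 883 without the deepest cells, 252 with median-ratio scaling and 1251 with cells weighted equally. In blank wounds, 274 higher genes became 435 with at least 50 UMIs, 752 at 1.5-fold and 116 with cells weighted equally, and 245 lower genes 441, 918, 721 without the deepest cells and 831 with cells weighted equally. The share of these calls that were higher, 62.8% for Ndrg2-KO against VD3 DCs, became 49.5% without mitochondrial and ribosomal protein genes, where the median of all genes moved from 0.011 to -0.182. It was 33.2% with VD3 and 23.1% under 5% mitochondrial UMIs. In Ndrg2-KO DC wounds it went from 49.1% to 66.6% with median-ratio scaling, 31.0% without the deepest cells and 12.4% with cells weighted equally, and in blank wounds from 52.8% to 28.7% and 12.2% under the last 2.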

Other observations

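The wound tables hold 2 more features than the DC tables, the reporters eGFP and tdTomato, and both had 0 UMIs in all wound libraries, so seeded and host cells could not be separated by them. In the DC-marker cells of wounds, Il4i1 rested on 11, 57 and 39 UMIs in the control DC, Ndrg2-KO DC and blank groups, in 7, 5 and 9 cells.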
